A study of Mus musculus with 48 samples.

Results

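The substantia nigra (SN) libraries of 48 mice were divided into classes chosen by their level of Mobp, which encodes myelin-associated oligodendrocyte basic protein. In each of 4 groups of 12 mice, the 6 mice with the highest Mobp value in TPM (transcript abundance scaled for gene length and sequencing depth) formed the high class and the other 6 formed the low class. This put 24 of 48 mice in the high class and 24 of 48 in the low class. All mice were male C57Bl/6J animals that received α-synuclein (α-syn) in the striatum at 121 days of age, either as preformed fibrils (PFFs) or as the monomer. They breathed 21% or 11% O2, and the SN was taken 90 to 98 days after injection, in 3 harvest batches. The groups were therefore monomer at 21% O2, PFF at 21% O2, monomer at 11% O2 and PFF at 11% O2, and every mouse carried an injection. The sources differ on the O2 exposure. The labels describe 12 weeks at 11% O2, whereas the deposited description gives 6 weeks at 21% O2 before the change to 11% O2. The dissection took the whole SN and not only its dopaminergic part.

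Oligodendrocytes wrap axons in myelin, a stack of membrane made of lipids and a small set of proteins. Mbp encodes a major structural protein of compact myelin, and Mobp encodes a smaller basic protein that lies in the same layers. Fibre bundles run next to and through the SN, so a piece of dissected midbrain holds white matter together with neuronal cell bodies, astrocytes and microglia. In bulk RNA, fewer cells of a type and less RNA per cell cannot be told apart. A split of mice by Mobp thus orders libraries by a transcript of myelinating cells, and a gene that differs between the classes is a gene that co-varies with Mobp among these libraries. The classes were not assigned by the experimenters and are no treatment.

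Mobp spans chr9:120149707-120181484 on the plus strand of GRCm38. In the high class its level had a minimum of 1190, a median of 1468 and a maximum of 2187 TPM. In the low class the minimum was 704, the median 1245 and the maximum 1454 TPM. The classes overlapped across the series because each group was split on its own. The spread differed between groups, and the 2 groups at 11% O2 were the wider ones. The mean was 1764 ± 248 TPM in high and 1323 ± 89.3 TPM in low monomer mice at 11% O2 (SD, n = 6 each), a ratio of 1.33. It was 1413 ± 137 and 1071 ± 185.7 TPM in PFF mice at 11% O2, a ratio of 1.32. In mice breathing 21% O2 the ratios were 1.15 for PFF and 1.12 for monomer injection. These values chose the classes and carry no test.

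Several mice lay close to the dividing line. The last high mouse and the first low mouse had 1314 and 1311 TPM in monomer mice at 21% O2. The pair had 1331 and 1324 TPM in PFF mice at 21% O2, and 1190 and 1187 TPM in PFF mice at 11% O2. Only in monomer mice at 11% O2 was the gap wider, with 1516 against 1454 TPM. When mice were ranked by Mbp instead, 40 of 48 kept their class.

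**Figure D1:**
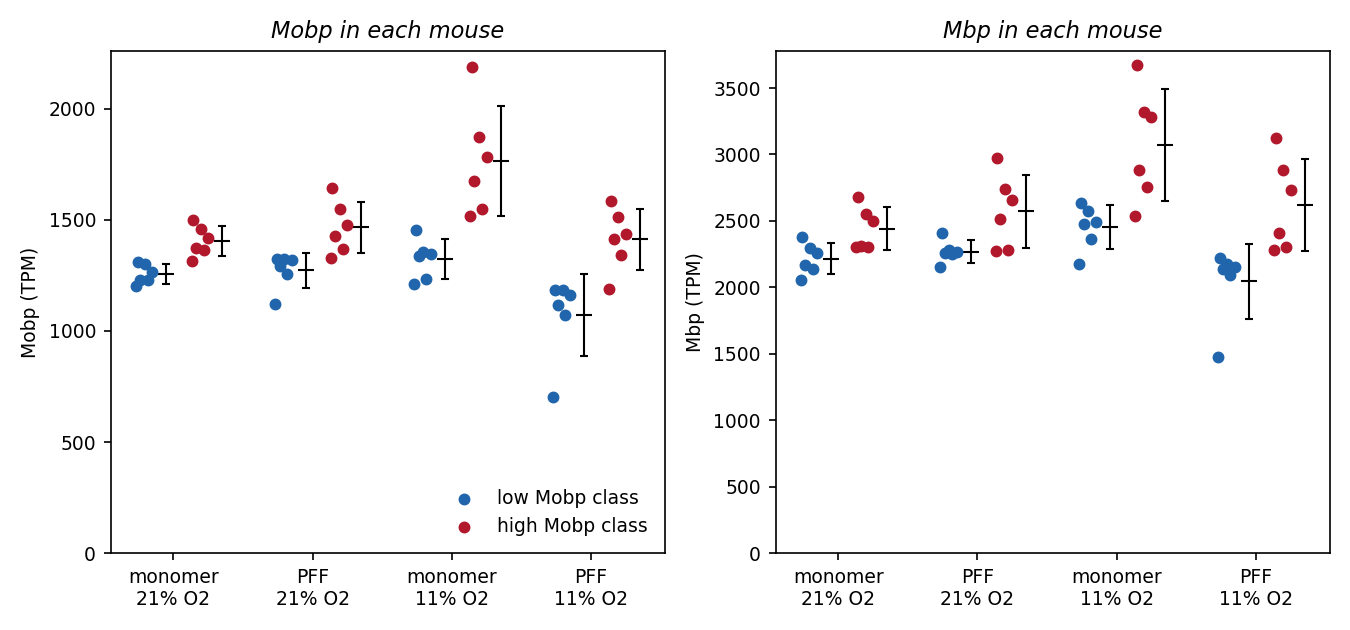
TPM of Mobp and of Mbp (vertical axes) in each of the 48 mice, by group; blue points are low and red points high Mobp mice, and bars give the mean ± SD of the 6 mice of a class. The Mobp classes are separated within each group by construction, with the widest gap in monomer mice at 11% O2 (1516 against 1454 TPM), while the Mbp values of the classes run into each other in 3 of 4 groups.

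The classes were not spread evenly over the harvest batches. Batch 1 held 4 high and 12 low mice, batch 2 held 9 high and 7 low, and batch 3 held 11 high and 5 low. In monomer mice at 11% O2, batch 1 held 0 high and 4 low mice and batch 3 held 6 high and 2 low, so that class and batch largely coincided within that group. Batch was therefore a term of the model, and the comparison of classes was also fitted with mice ranked by Mobp within group and batch, which left 40 of 48 mice in their class. High mice had more counts on genes, with a mean of 15758148 against 14451728 in low mice (difference 1306420, permutation test within groups, two-sided, adjusted p = 0.0179 over 4 measures). PFF mouse 2 at 11% O2, a low mouse, had only 3134594 counts, a mitochondrial share of 6.99% and 22797 genes with a count. The share of counts on mitochondrially encoded genes was 3.65% in high and 3.80% in low mice (adjusted p = 0.589, same test). Without that library the difference in counts was 814371 (permutation test within groups, adjusted p = 0.0244), and the 100 genes with most counts took 15.98% of counts in high and 15.67% in low mice (permutation test, adjusted p = 0.0108, against 0.589 with all mice). The part of depth in the results was not tested beyond a fit with log2 total counts as a term. That fit moved no count of calls over all genes by more than 1.5 times. In the gene lists described below, it called 5 mature oligodendrocyte markers in place of 8, and 1 compact myelin gene in place of 2. By the adjusted p alone, 20 of the mature markers passed in place of 21, and 9 compact myelin genes passed in either fit. The authors had left 6 of the 48 mice out of their corrected tables, 4 of them low and 2 high.

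Genes were compared between classes with edgeR's quasi-likelihood test, with group and batch as terms. A gene was called at a Benjamini-Hochberg adjusted p below 0.05 and an absolute log2 fold change above 0.25. Among 18157 genes tested besides Mobp, 124 were called higher in high Mobp mice, which is 0.683% of the genes tested, and 76 were called lower, which is 0.419%. By the adjusted p alone, 571 were higher (3.14%) and 116 were lower (0.639%). Of the 124 genes, 121 had the same sign in each of the 4 groups, and of the 76 genes, 74 did. In the same libraries 6744 of all 18157 genes had 1 sign in the 4 groups. The calls were made on these same mice and classes, so the shared sign follows in part from the choice of genes and is no replication. The changes were small. The median difference of the 124 genes was 0.29 in monomer mice and 0.24 in PFF mice at 21% O2, and 0.44 and 0.39 in the same order at 11% O2 (log2 CPM, counts scaled to library size).

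The ranking within group and batch treated the directions differently. It called 19 genes higher, 18 of which were among the 124, and all 124 kept their sign. The ranking left 40 of 48 mice in the class of the first split, so overlap and kept signs are no separate support. It called 0 genes lower by edgeR's quasi-likelihood test, although all 76 genes kept their sign and 51 of them had an unadjusted p below 0.05. The lower genes are therefore given as a description. They come, like the higher genes, from a split in which batch 1 held mostly low mice. Within batches 1, 2 and 3 the medians of the 76 genes were −0.30, −0.46 and −0.44 (log2 CPM), in the same mice that chose them. Without the library of fewest counts, 117 genes were called higher and 106 lower.

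**Figure D2:**
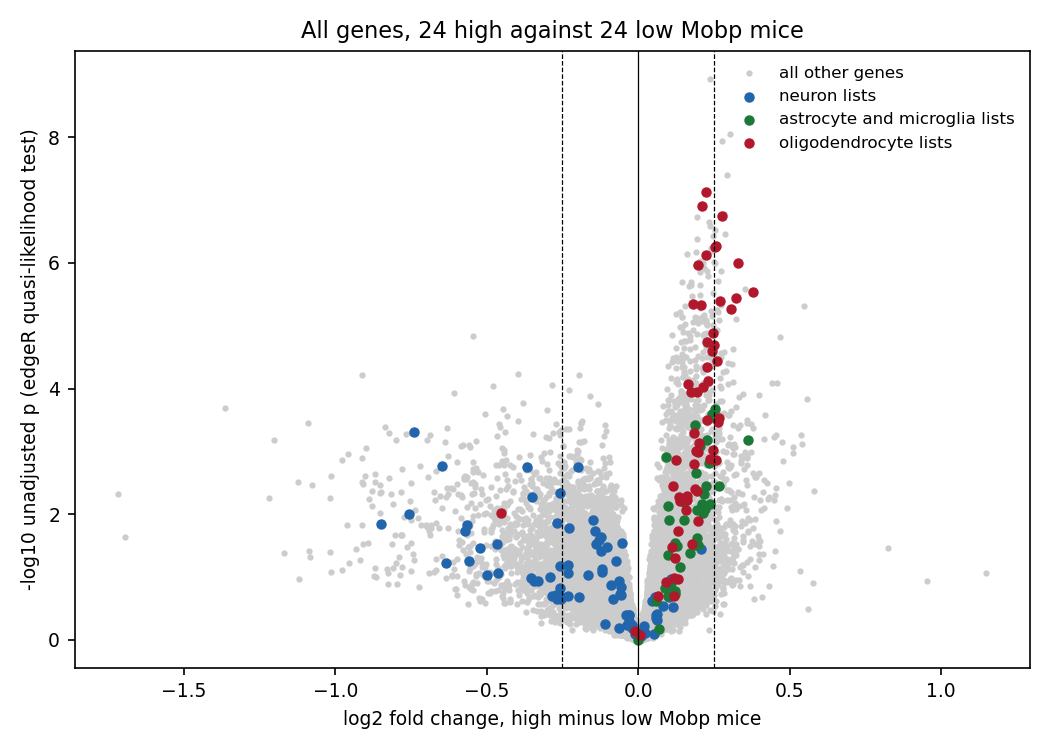
Volcano plot of 18157 genes, with the log2 fold change of high over low Mobp mice on the horizontal axis and −log10 of the unadjusted edgeR p on the vertical axis; dashed lines mark a log2 fold change of 0.25 in either direction. Of the oligodendrocyte genes 56 of 58 and all astrocyte and microglia genes lie to the right of 0, and 61 of 78 neuron genes lie to the left.

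Most oligodendrocyte genes had small positive differences. Over 4 lists, which hold compact myelin proteins, mature oligodendrocyte markers, transcription factors and enzymes of myelin lipid synthesis, 56 of 58 genes were higher in high Mobp mice. Their median log2 fold change was 0.20, with single genes from −0.45 to 0.38, against a median of −0.01 for all genes tested. Of the 58 genes, 37 passed the adjusted p and 12 also passed the fold change. With mice ranked within group and batch, 55 of 58 were higher with a median of 0.17, and 25 passed the adjusted p. These genes belong to the cells that Mobp marks, so their values describe the split and are not separate evidence of it. The median was 0.18 and 0.16 in monomer and PFF mice at 21% O2, and 0.31 in both groups at 11% O2. It was 0.22, 0.13 and 0.33 in batches 1, 2 and 3.

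All 12 measured compact myelin genes other than Mobp were higher, with a median of 0.21, and 9 passed the adjusted p. Mbp had a minimum, median and maximum of 2270, 2605 and 3671 TPM in high mice. In low mice the values were 1480, 2253 and 2636 TPM, so that the highest low mouse lay above the median high mouse. The log2 fold change of Mbp was 0.21 (adjusted p = 0.00155, SE 0.0402, edgeR's quasi-likelihood test), below the fold needed for a call. Cldn11, the tight junction protein of myelin, and Mal, a proteolipid of myelin membranes, were the 2 genes of the list that were called. Cldn11 lay between 653 and 1194 TPM in high and between 415 and 765 TPM in low mice, and its high median of 771 TPM was above every low mouse. Its log2 fold change was 0.28 (adjusted p = 0.000333, SE 0.0449, edgeR), and that of Mal was 0.27 (adjusted p = 0.00146, SE 0.0512, edgeR). Cnp, Mag and Mog, which encode an enzyme of the myelin sheath, a receptor of the inner sheath and a protein of its outer surface, had log2 fold changes of 0.23, 0.23 and 0.21 with adjusted p values of 0.00566, 0.0179 and 0.0089 (edgeR). Mag did not pass with mice ranked within group and batch (adjusted p = 0.0662, edgeR). Opalin and Pllp, other membrane proteins of these cells, had values of 0.12 each and did not pass (adjusted p = 0.516 and 0.379, edgeR).

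The stretch before the start of Mobp is shown because its level set the classes, and those of Cnp and Mag because they are the genes of the compact myelin list whose stretch holds matches to both motifs searched. The 250 bases upstream of the RefSeq start on GRCm38.p6 are printed from 5′ to 3′ on the gene's strand, and capitals mark matches on either strand to ACAAAG (the core of SOX sites, CTTTGT on the other strand) or to CTGGCAC or CTGGTAC (MYRF). Mobp lies at chr9:120149492-120149741 (plus strand), Cnp at chr11:100574689-100574938 (plus strand) and Mag at chr7:30914864-30915113 (minus strand).
Mobp: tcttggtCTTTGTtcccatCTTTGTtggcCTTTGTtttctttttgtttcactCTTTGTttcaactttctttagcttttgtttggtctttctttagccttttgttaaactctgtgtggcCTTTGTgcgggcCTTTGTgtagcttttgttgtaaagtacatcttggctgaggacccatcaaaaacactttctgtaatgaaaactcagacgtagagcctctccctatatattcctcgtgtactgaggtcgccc
Cnp: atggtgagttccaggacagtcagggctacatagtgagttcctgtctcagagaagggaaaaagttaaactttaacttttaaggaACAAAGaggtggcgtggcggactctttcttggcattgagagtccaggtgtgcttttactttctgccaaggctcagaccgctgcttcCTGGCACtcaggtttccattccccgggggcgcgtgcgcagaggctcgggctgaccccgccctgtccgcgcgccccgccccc
Mag: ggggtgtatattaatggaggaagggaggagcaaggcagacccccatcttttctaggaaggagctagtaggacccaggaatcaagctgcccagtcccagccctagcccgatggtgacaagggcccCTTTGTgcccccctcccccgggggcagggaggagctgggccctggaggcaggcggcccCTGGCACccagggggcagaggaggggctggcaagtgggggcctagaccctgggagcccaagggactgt

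The Mobp stretch held 6 matches to the SOX core, and it was 1 of 27025 promoters with as many (0.0037%). Over the compact myelin and mature oligodendrocyte lists, 29 of 41 genes had an entry in the RefSeq table. Of these 29, 9 held the SOX core (31.0%) against 16.5% of all 27025 promoters, and 5 held a MYRF motif (17.2%) against 5.87%. The motifs do not overlap each other in letters. Of the 12 called genes outside every list that are described below, 10 had an entry, 3 of them with the SOX core and 0 with a MYRF motif. These are counts of letters in a window and describe no binding.

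Among mature oligodendrocyte markers all 29 genes were higher, with a median of 0.21, 21 passed the adjusted p and 8 were called. Ermn encodes ermin, a cytoskeletal protein of myelinating cells, and had a minimum, median and maximum of 244, 310 and 458 TPM in high mice. In low mice the values were 98.6, 253 and 308 TPM. The median high mouse was thus above every low mouse, and the log2 fold change was 0.32 (adjusted p = 0.00136, SE 0.0613, edgeR). Anln, which encodes the actin-binding anillin and is found in myelin, had the greatest change of the list, 0.38 (adjusted p = 0.00119, SE 0.071, edgeR). Gjb1 encodes a gap junction protein of oligodendrocytes and had a log2 fold change of 0.26 (adjusted p = 0.0049, edgeR). The small heat shock protein gene Cryab and the protease gene Klk6 were called at 0.25 and 0.26 (adjusted p = 0.000521 and 0.0411, edgeR), and Klk6 did not pass in the 42 mice that the authors kept (adjusted p = 0.0653). Trf, which encodes the iron carrier transferrin made by oligodendrocytes, had 0.24 (adjusted p = 0.00403, edgeR). Apod, the gene of a lipid carrier that fibroblasts also express, had 0.13 (adjusted p = 0.387, edgeR), and among low mice it reached 1327 TPM against at most 991 TPM in high mice.

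Of 12 genes for enzymes that make myelin lipids, 11 were higher with a median of 0.18, and 6 passed the adjusted p. Fa2h, which adds the hydroxyl group to the fatty acids of myelin galactolipids, had a minimum, median and maximum of 109, 145 and 234 TPM in high and of 52.4, 109 and 158 TPM in low mice. The lowest high mouse thus stood at the median of the low class, and the log2 fold change was 0.33 (adjusted p = 0.000604, SE 0.0586, edgeR). Ugt8a, which attaches galactose to ceramide in the same pathway, had 0.31 (adjusted p = 0.00164, SE 0.0597, edgeR). Gal3st1, which adds sulphate to the product, had 0.19 (adjusted p = 0.0103, edgeR, and 0.143 with mice ranked within group and batch). Cholesterol is the other main lipid of myelin. Of 21 genes of cholesterol synthesis and its regulation, 20 were lower with a median of −0.13, but 0 passed the adjusted p in edgeR or in DESeq2, and 5 had an unadjusted p below 0.05 in edgeR.

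Of 10 oligodendrocyte transcription factors 9 were higher, with a median of 0.19, and 4 passed the adjusted p. Myrf, the regulator that myelinating cells need to switch on myelin genes, had a log2 fold change of 0.26 (adjusted p = 0.0189, SE 0.0682, edgeR). Its median was 89.5 TPM in high and 71.4 TPM in low mice, with ranges of 61.7 to 126 and 25.4 to 96.5 TPM that overlapped over much of their length. Sox8 had 0.26 (adjusted p = 0.000521, SE 0.044, edgeR) and Sox10, the lineage factor that acts with Myrf, had 0.24 (adjusted p = 0.0407, SE 0.0694, edgeR). Ranked within group and batch, Myrf, Sox8 and Sox10 no longer passed (adjusted p = 0.184, 0.081 and 0.206, edgeR). Olig1 and Olig2, which are expressed from the precursor stage on, had 0.16 and 0.19 and did not pass (adjusted p = 0.086 and 0.0759, edgeR). Tcf7l2, which is expressed in newly formed oligodendrocytes and also in thalamic neurons, had −0.45 (adjusted p = 0.121, edgeR), and of 9 tested genes of the thalamus list, which counts Tcf7l2 among them, 8 were lower with a median of −0.36, or 5 with a median of −0.14 with mice ranked within group and batch.

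Among genes of precursors and premyelinating cells, 12 of 16 were higher with a median of 0.08, and 4 passed the adjusted p. Enpp6, which marks newly formed oligodendrocytes, was the only called member, with 0.35 (adjusted p = 0.00107, SE 0.0654, edgeR). Its median was 21.0 TPM in high and 17.7 TPM in low mice. The precursor genes Pdgfra and Cspg4 had log2 fold changes of 0.06 and 0.07 (adjusted p = 0.531 and 0.518, edgeR). Cntn2 and Jam3, which encode adhesion proteins at the contact of axon and glia, had 0.21 and 0.23 (adjusted p = 0.021 and 0.000782, edgeR), and 9 of 13 genes of that contact list were higher. With mice ranked within group and batch Cntn2 did not pass and Jam3 did (adjusted p = 0.127 and 0.0106, edgeR).

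**Figure D3:**
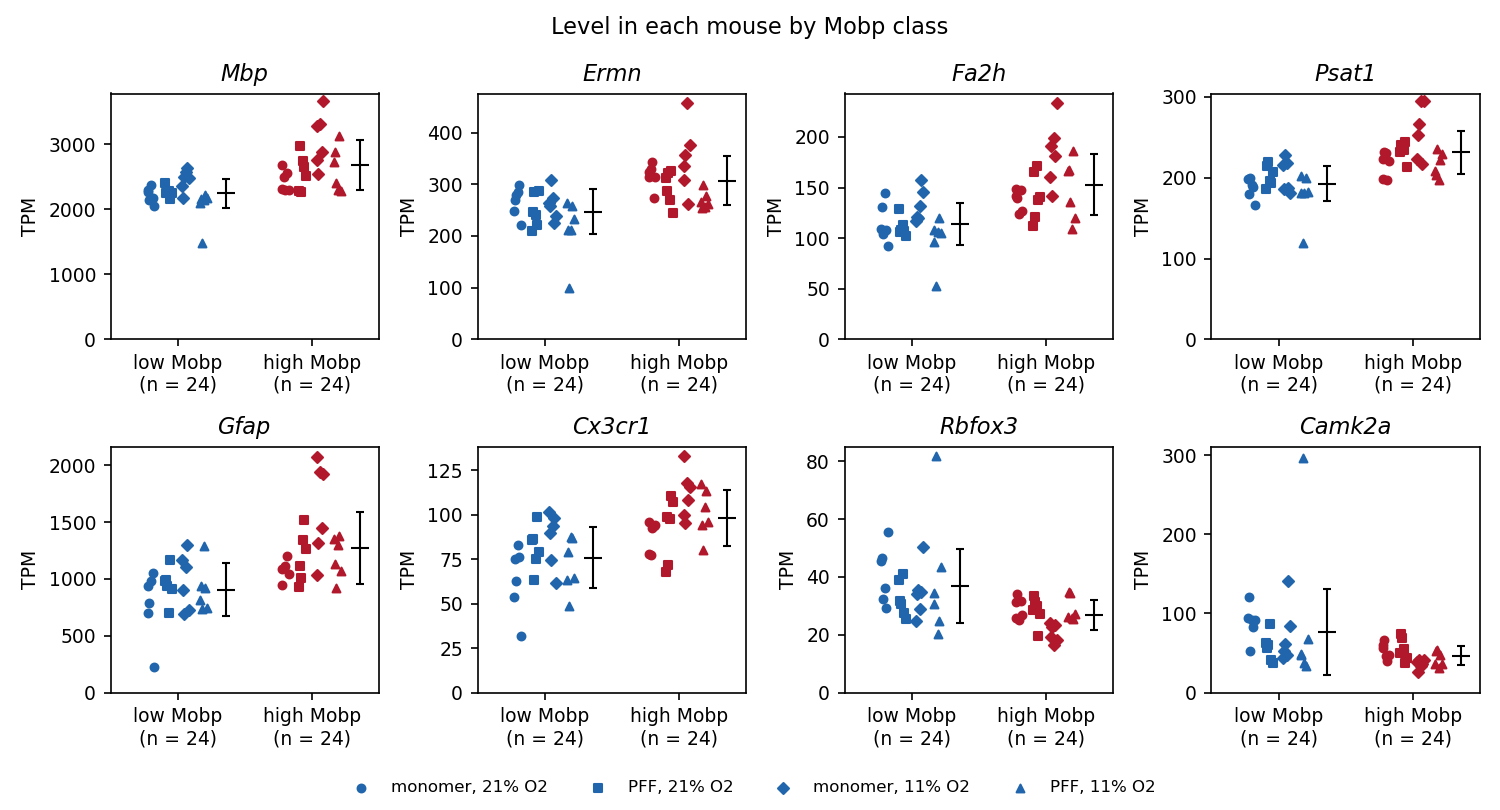
TPM (vertical axes) of Mbp, Ermn, Fa2h, Psat1, Gfap, Cx3cr1, Rbfox3 and Camk2a in each mouse of the low (blue) and high (red) Mobp class, with marker shapes for the 4 groups. High mice lie higher for the first 6 genes and lower for Rbfox3 and Camk2a with overlap throughout, and 1 low mouse stands at 297 TPM for Camk2a.

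The 103 genes that were called higher with 1 sign in all 4 groups and that are in no list were led by D16Ertd472e and Psat1. Psat1 encodes an enzyme of serine synthesis. It had a minimum, median and maximum of 197, 230 and 295 TPM in high mice and of 119, 191.7 and 228 TPM in low mice. The median high mouse was therefore above every low mouse, and the log2 fold change was 0.28 (adjusted p = 6.85e-05, SE 0.0396, edgeR). D16Ertd472e, a gene of poorly known function at chr16:78540338-78576708, ran from 16.8 to 27.5 TPM in high and from 10.04 to 21.6 TPM in low mice. Its log2 fold change was 0.30 (adjusted p = 6.85e-05, SE 0.0431, edgeR). Rapgef4, which encodes the cyclic AMP sensor Epac2, had 0.29 (adjusted p = 0.000145, SE 0.0443, edgeR), and its medians were 232 and 193.03 TPM.

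The next 9 genes of this order had log2 fold changes from 0.25 to 0.29. They were Efhd1, which encodes a calcium-binding protein of mitochondria, Cpm, a membrane carboxypeptidase, Rhou, a small GTPase, Papss2, which makes the sulphate donor of the cell, Cerox1, a non-coding RNA, Trim36, a ubiquitin ligase, Arhgef10, an exchange factor for small GTPases, Cd82, a tetraspanin, and Prr5l, a partner of mTOR complex 2. Ranked within group and batch, 11 of these 12 genes kept an adjusted p below 0.05 (edgeR) and Papss2 did not (adjusted p = 0.0968). Most mice keep their class in that ranking and the 12 were chosen for a small p, so this is no separate support. Cerox1 (chr17:25570358-25575043, plus strand) overlaps Sox8 (chr17:25565892-25570686, minus strand). The counting used no strand, so strand does not show which gene of this pair a read in their overlap came from.

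Astrocyte and microglia genes had values above 0, and most did not pass the test. By the adjusted p, 3.14% of all genes tested were higher. All 20 astrocyte genes were higher, with a median of 0.11, and 4 passed the adjusted p. Gfap, the intermediate filament of astrocytes, had a minimum, median and maximum of 919, 1167 and 2071 TPM in high mice and of 230, 931 and 1300 TPM in low mice. High mice were shifted upward with wide overlap, and the log2 fold change was 0.36 (adjusted p = 0.027, SE 0.0988, edgeR). Agt (angiotensinogen) and S100b, which oligodendrocytes also express, had 0.25 and 0.19 (adjusted p = 0.0168 and 0.0197, edgeR). All 20 microglia genes were also higher, with a median of 0.21, and 5 passed the adjusted p. Cx3cr1, the fractalkine receptor of microglia, ran from 67.7 to 133 TPM (median 96.7) in high and from 31.7 to 102 TPM (median 77.8) in low mice. It had a log2 fold change of 0.25 (adjusted p = 0.0147, SE 0.0627, edgeR), and Csf1r, the receptor on which microglia depend, had 0.24 (adjusted p = 0.0163, SE 0.0616, edgeR). Ranked within group and batch, 18 of 20 astrocyte and 20 of 20 microglia genes were still higher, but 0 of either list passed the adjusted p in edgeR. The microglia median was above 0 in each group, from 0.15 in PFF mice at 21% O2 to 0.43 in monomer mice at 21% O2. It was 0.24, 0.26 and 0.18 in batches 1, 2 and 3.

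Most neuron genes had values below 0 in high Mobp mice, and most did not pass the test. Among all genes tested, 0.639% were lower by the adjusted p and 0.419% were called lower. Over all neuron lists 61 of 78 genes were lower with a median of −0.12, 4 passed the adjusted p and 3 were called. Within batch 2 the median was −0.01 with 41 of 78 lower, and with mice ranked by Mbp it was −0.04 with 54 of 78 lower and 0 past the adjusted p (edgeR; 3 were lower and 4 higher at an unadjusted p below 0.05). Rbfox3, the nuclear protein NeuN, had a minimum, median and maximum of 16.4, 26.5 and 34.6 TPM in high and of 20.4, 34.1 and 81.7 TPM in low mice. The median low mouse was close to the highest high mouse, and the log2 fold change was −0.37 (adjusted p = 0.0483, SE 0.11, edgeR). Camk2a, a kinase subunit of excitatory forebrain neurons, had −0.65 (adjusted p = 0.0473, SE 0.195, edgeR), and without the 6 mice that the authors left out it had −0.34 (adjusted p = 0.0623, edgeR). Its highest low value, 297 TPM, was that of PFF mouse 2 at 11% O2. Htr1a, a serotonin receptor, had −0.74 (adjusted p = 0.0232, edgeR) at a median of 2.60 TPM in high and 4.50 TPM in low mice. Snap25, a protein of every synapse, had −0.03 (adjusted p = 0.709, edgeR). None of Rbfox3, Camk2a and Htr1a passed when mice were ranked within group and batch (adjusted p = 0.402, 0.287 and 0.32, edgeR).

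Of 17 dopaminergic genes 16 were lower with a median of −0.27, but 0 passed the adjusted p in edgeR or DESeq2, and 2 had an unadjusted p below 0.05 in edgeR. Th, the rate-limiting enzyme of dopamine synthesis and the defining marker of the labelled tissue, was present in every library, with 62.6 to 919 TPM in high mice and 185.2 to 1153 TPM in low mice. The ranges overlapped almost fully, and the log2 fold change was −0.34 (adjusted p = 0.396, SE 0.213, edgeR). The dopamine transporter gene Slc6a3 had −0.26 (adjusted p = 0.542, SE 0.206, edgeR). The median of the list was −1.27 in monomer mice at 11% O2, where batch and class go together, against −0.23, −0.22 and −0.28 in monomer mice at 21% O2, PFF mice at 21% O2 and PFF mice at 11% O2. High monomer mice 8 and 9 at 11% O2, both left out by the authors, had the lowest summed levels of the list in the series, 1010 and 867 TPM. The other high mice of that group had 1681 to 4575 TPM and its low mice 2864 to 5940 TPM. The part of mice 8 and 9 in the group's median was not tested. By batch it was −0.19, −0.01 and −0.71 in batches 1, 2 and 3. GABAergic genes mark most neurons of the SN pars reticulata. Of 12 such genes 9 were higher with a median of 0.05, or 7 of 12 with a median of 0.00 when mice were ranked within group and batch. In the first of these splits 0 passed the adjusted p in edgeR or DESeq2, and 1 had an unadjusted p below 0.05 in edgeR. The difference between the GABAergic and dopaminergic lists was not tested. Of 12 glutamatergic genes 12 were lower with a median of −0.36 and 2 passed the adjusted p (Camk2a and Camk2b), and the median was −0.18 with mice ranked within group and batch. Slc17a6, the vesicular transporter of glutamate in the diencephalon and midbrain, had −0.76 (adjusted p = 0.123, SE 0.282, edgeR).

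Genes that mark brain regions, among them regions near the SN, the hippocampus and cortex, and the striatum, were also mostly lower. Over these lists 45 of 55 genes were lower with a median of −0.29, 3 genes passed the adjusted p, 2 of them higher and 1 lower, and 2 were called. Among all genes tested, 3.14% were higher and 0.639% lower by the adjusted p, and 0.683% and 0.419% were called. Hippocampus and cortex genes had a median of −0.38 (11 of 13 lower), and subthalamic and hypothalamic genes had −0.30 (11 of 12 lower). For the subthalamic and hypothalamic genes the median was −0.01 with mice ranked by Mbp (6 of 12 lower), and 0.04 within batch 1 (5 of 12 lower). The summed level of the hippocampus and cortex list ran from 160 to 272 TPM in high and from 175.2 to 489 TPM in low mice. Without the library of fewest counts the hippocampus and cortex median was −0.21 in place of −0.38. Pomc of the hypothalamic list was called lower at −0.40, and Sall1 of the red nucleus and midbrain list was called higher at 0.28 (adjusted p = 0.0182 and 0.000333, edgeR). Prox1 of the hippocampus and cortex list passed as higher at 0.16 (adjusted p = 0.0269, edgeR). With mice ranked within group and batch, Pomc, Sall1 and Prox1 did not pass (adjusted p = 0.418, 0.0869 and 0.0587, edgeR), and Pomc did not pass in the 42 mice that the authors kept (adjusted p = 0.0623). Sall1 is also a defining transcription factor of microglia.

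The 70 genes that were called lower with 1 sign in all groups and that are in no list were led by Kcnt2, a sodium-activated potassium channel, at −0.40 (adjusted p = 0.00659, SE 0.0891, edgeR). Its medians were 2.98 TPM in high and 3.97 TPM in low mice. Glra2, a subunit of the glycine receptor, had −0.48 (adjusted p = 0.00873, SE 0.112, edgeR) with ranges of 7.73 to 20.7 and 10.9 to 36.4 TPM that overlapped over most of the high class. Mc3r, the melanocortin receptor known from the hypothalamus and ventral midbrain, had the largest change of the 12 first genes, −1.37 (adjusted p = 0.0142, SE 0.338, edgeR), at medians of only 0.273 and 0.779 TPM. Neurod1, a transcription factor of granule neurons, had −1.09 (adjusted p = 0.0191, SE 0.282, edgeR), and its highest value of 9.21 TPM came from PFF mouse 2 at 11% O2. The others of the 12 were Myo1h, Slc44a5, Spint2, Unc5d, Gm34006, Ak5, Plxnc1 and Tunar, with log2 fold changes from −0.91 to −0.28. With mice ranked within group and batch, none of the 12 genes had an adjusted p below 0.05 in edgeR.

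**Figure D4:**
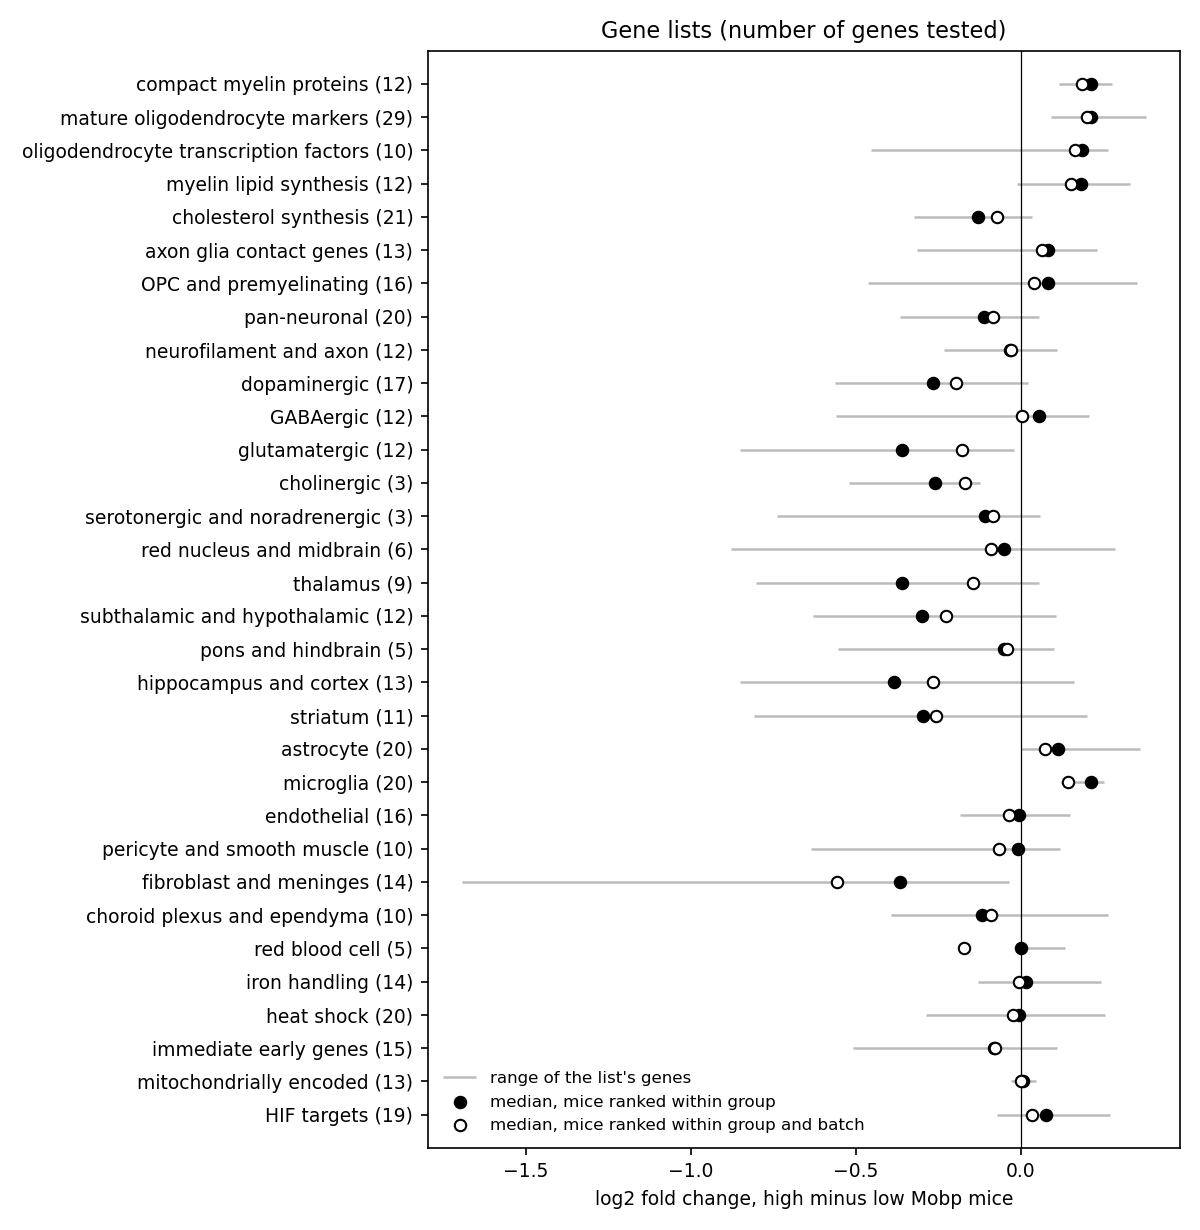
Log2 fold change of high over low Mobp mice (horizontal axis) for each gene list: the grey line is the range over its genes, the filled point the median with batch as a term, and the open point the median with mice ranked within group and batch. Oligodendrocyte, astrocyte and microglia lists have medians above 0, most neuron and region lists have medians below 0, and the open points lie nearer to 0 for most lists that are lower.

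The fibroblast and meninges list changed direction with a few mice. With all 48 mice 0 of 14 genes were higher, the median was −0.37, none passed the test in edgeR or DESeq2, and 1 had an unadjusted p below 0.05 in edgeR. In the 42 mice that the authors kept, 14 of 14 genes were higher with a median of 0.51, and 4 were called. Over all genes, 285 were called higher in the 42 mice against 124 in the 48 mice. The summed level of the list was 923 to 3005 TPM in high and 720 to 9777 TPM in low mice. Its 3 highest sums, 9777, 5353 and 4121 TPM, were those of PFF mouse 5 at 11% O2, monomer mouse 10 at 21% O2 and PFF mouse 2 at 11% O2, all low mice among the 6 left out. The medians were 0.47, 0.60 and 0.75 in monomer mice at 21% O2, PFF mice at 21% O2 and monomer mice at 11% O2, and −0.86 in PFF mice at 11% O2. Endothelial genes, whose median was −0.00 over 48 mice, were higher for 16 of 16 genes with a median of 0.17 in the 42 mice. The part of attached meninges or vessels in the other differences was not tested.

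Among stress and oxygen lists little passed the test. Of 19 targets of the hypoxia-inducible factor, 12 were higher and Hk2, a hexokinase, was called at 0.27 (adjusted p = 0.0074, SE 0.0615, edgeR). Of 20 heat shock genes 9 were higher, and Cryab, which is also in the oligodendrocyte list, was the called member. Foxj1, the regulator of motile cilia, was called at 0.26 in the choroid plexus and ependyma list (adjusted p = 0.025, edgeR). With mice ranked within group and batch, Hk2 and Foxj1 did not pass (adjusted p = 0.350 and 0.151, edgeR).

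**Figure D5:**
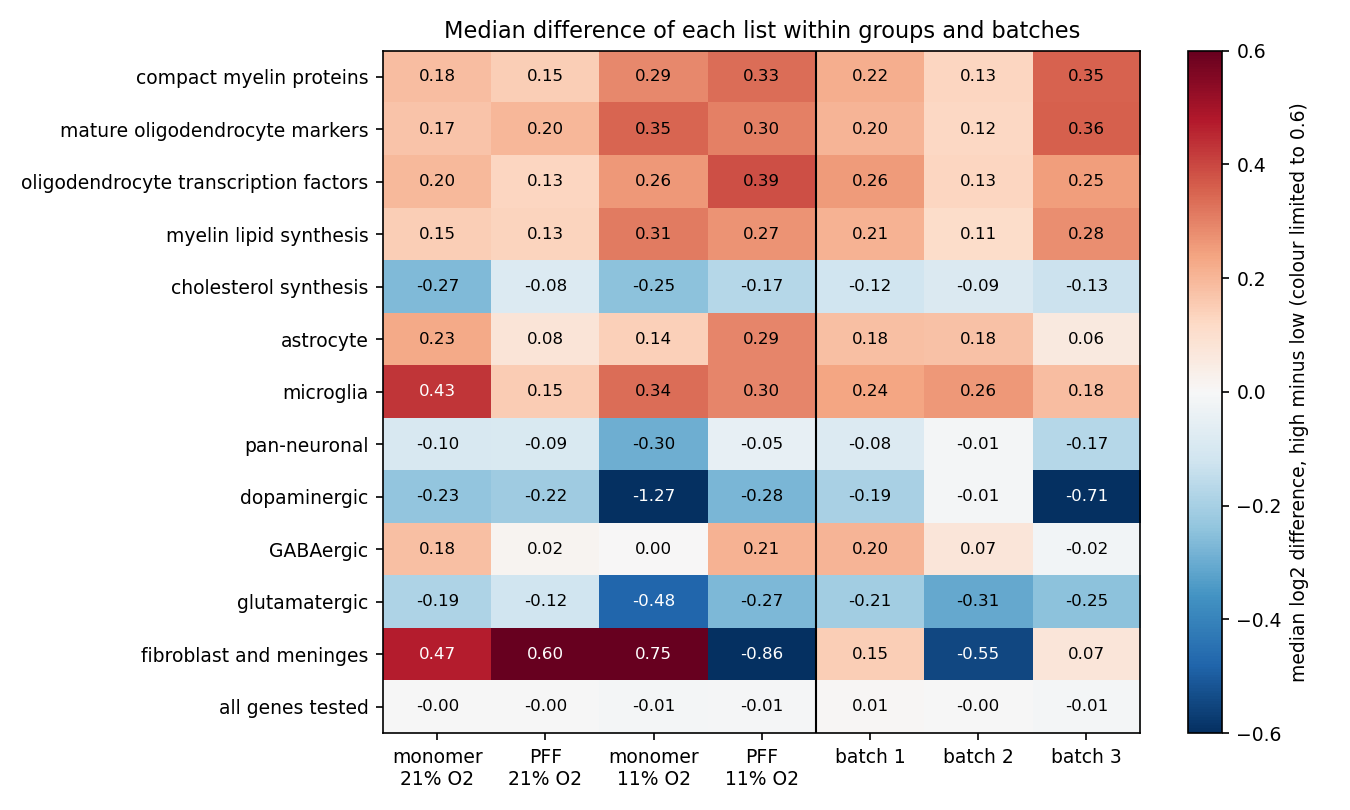
Median log2 difference between high and low Mobp mice of each gene list (rows) within each of the 4 groups and each of the 3 harvest batches (columns), as colour. Oligodendrocyte and microglia rows have the same sign in every column, the dopaminergic row is lowest in monomer mice at 11% O2 (−1.27), and the fibroblast row turns to −0.86 in PFF mice at 11% O2.

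Whether the difference between classes depended on O2 or on the injection was tested with interaction terms. For O2, 0 genes were called by edgeR's quasi-likelihood test (0% of those tested), 307 had an unadjusted p below 0.05, and DESeq2 called 0. For injection, 0 genes were called (0%), 913 had an unadjusted p below 0.05, and DESeq2 also called 0. Of the 58 oligodendrocyte genes, 55 had a larger difference at 11% than at 21% O2, with a median of 0.09, and 2 had an unadjusted p below 0.05. By injection 31 of 58 were larger in PFF than in monomer mice, and the median was 0.01. The ratios of Mobp itself, 1.33 and 1.32 at 11% and 1.12 and 1.15 at 21% O2, set how far apart the classes were in each group. A test that misses the threshold does not show that the differences were alike.

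Because mice were split within groups, the levels of Mobp between groups were not used by the split. Mobp averaged 1331 ± 94.5 TPM in monomer and 1370 ± 138 TPM in PFF mice at 21% O2, and 1544 ± 291 TPM in monomer and 1242 ± 237 TPM in PFF mice at 11% O2 (SD, n = 12 each). The highest group mean was thus that of monomer mice and the lowest that of PFF mice at 11% O2. These means include the 6 mice that the authors left out. Among them, PFF mice 2 and 5 at 11% O2 had 704 and 1070 TPM. Monomer mice 8, 9 and 12 at 11% O2 had 1875, 1781 and 1335 TPM, and monomer mouse 10 at 21% O2 had 1202 TPM. In the order of means, neighbouring groups differed by less than the SD of the wider of the pair. The log2 fold change of PFF over monomer mice was −0.23 at 11% O2 (adjusted p = 0.635, edgeR) and −0.00 at 21% O2 (adjusted p = 0.997, edgeR). That of 11% over 21% O2 was 0.10 in monomer mice (adjusted p = 0.569, edgeR) and −0.13 in PFF mice (adjusted p = 0.488, edgeR).

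The number of calls among the 59 oligodendrocyte genes including Mobp differed between the comparisons of conditions. In monomer mice, 55 of 59 were higher at 11% O2 with a median of 0.19 and 9 were called in edgeR, where 5.3% of all genes were called. An unadjusted p below 0.05 was found in edgeR for 30 of 59 (50.8%) against 4089 of all genes (22.5%). DESeq2 called 14 of the 59 and 1086 of all genes. Opalin had the largest value of the 9, 0.70 (adjusted p = 0.00121, edgeR), and Mog, Pllp, Pmp22, Ppp1r14a, S1pr5, Olig1, Nkx2-2 and Elovl7 ranged from 0.32 to 0.47. In PFF mice, 30 of 59 were higher at 11% O2 with a median of 0.00 and 0 were called in edgeR or DESeq2, where 0.699% of all genes were called, and 3 of 59 had an unadjusted p below 0.05 (5.08%) against 2390 of all genes (13.2%). Between PFF and monomer mice at 11% O2, 58 of 59 were lower with a median of −0.17. None of the 59 and 0% of all genes were called there by edgeR, 29 of 59 and 1270 of all genes had an unadjusted p below 0.05, and DESeq2 called 0 of the 59 and 5 of all genes. At 21% O2, 39 of 59 were higher in PFF mice with a median of 0.03, where 3.27% of all genes were called. Opalin was called higher at 0.56 and Cryab lower at −0.29 in that comparison (adjusted p = 0.00361 and 0.0192, edgeR). These comparisons share their groups in pairs and are not independent of each other. They use all 48 mice, including the 6 that the authors left out. Monomer mice at 11% O2 were absent from batch 2 and monomer mice at 21% O2 from batch 3, so the comparison between them leans on batch 1 and on the batch term.

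With the Mobp class added as a term, 405 genes were called higher and 222 lower in PFF than in monomer mice at 21% O2, 778 higher and 340 lower at 11% over 21% O2 in monomer mice, and 99 higher and 37 lower at 11% over 21% O2 in PFF mice. Without that term 382 of 593 called genes were higher in the first of these comparisons, and the numbers were 661 and 301, and 95 and 32, in the others. Between PFF and monomer mice at 11% O2, 0 genes were called with or without the term in edgeR.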

How the data were processed

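RNA-seq libraries of the whole SN from 48 mice (12 in each of 4 groups) were analysed. They were made from poly(A) RNA with a kit that does not mark strand and sequenced as paired reads. Per the study's methods, the authors removed reads of ribosomal DNA, aligned the rest with STAR (2.7.5a) to mm10 with GENCODE gene models, removed duplicates with Picard MarkDuplicates (2.21.9) and counted with featureCounts (2.0.1), with 1 alignment for each read pair and no strand option. The deposited count tables hold whole-number counts of 55385 genes in 48 mice, and the deposited TPM tables hold the same genes scaled by the authors for length and depth. A further pair of tables holds 19601 protein-coding genes of 42 mice after the authors' batch correction with ComBat-seq, and was used only as an alternative. The number of library entries without a sample was 0.

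Mice were ranked by Mobp TPM within group and split into 6 high and 6 low. Counts of all 48 mice were tested with edgeR (4.0.16, R 4.3.3; TMM, filterByExpr by group, quasi-likelihood test, Benjamini-Hochberg over all genes tested) with class, group and batch as terms. Mobp was removed after the fit, since it defined the classes. The SE was taken as the size of the log2 change over the square root of its F value. DESeq2 (1.42.0) and limma (3.58.1, log2(TPM + 1) or log2(TPM + 0.1)) were alternatives, as were other splits, filters and sets of mice. Library measures were tested with 100000 permutations of class within group. Scripts were tested on simulated data. Counts per mouse ranged from 3134594 to 17120921 and limit what can be seen of genes with few counts.

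The members and the 32 gene lists were chosen with earlier results of these data known. Named genes were Mobp, Mbp, list members and, in each direction, the 12 genes in no list with the smallest p among genes called with 1 sign in all 4 groups. Some members of the lists enter the counts and medians but are not reported here by name. Within-group and within-batch values are differences of mean log2 CPM (prior count 1). The mice are separate animals. Per the study's methods, mice were matched between treatment groups by weight, age, delivery date and, where possible, cage, and then assigned at random. The labels do not name the matched mice, and the numbers they give to mice were not treated as pairs. None of 1128 pairs of libraries was identical, and the lowest chi-square per gene between a pair was 2.16. Coordinates are GENCODE models on GRCm38, where 18141 of 18157 gene IDs matched by number. Promoters come from RefSeq on GRCm38.p6.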

Additional observations from a re-analysis of the deposited data

Results flagged for a closer look

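Values were compared among the 6 mice of each class within each group, and a mouse was marked when its gap to the nearest mouse was large for the range of the 6. Of 232 such sets of values, 23 were marked (9.91%), in 10 mice, where chance marks about 1 in 20.

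Of these 23 values, 12 were those of PFF mouse 2 at 11% O2, a low mouse. It had 3134594 counts (nearest mouse 12902996) and 22797 genes with a count (nearest 26764). It was lowest for Mobp at 704 TPM (nearest 1070), Mbp at 1480 TPM (2096), D16Ertd472e at 10.04 TPM (15.9), Psat1 at 119 TPM (180.9), Cpm at 7.45 TPM (17.3), Arhgef10 at 30.0 TPM (53.3), Prr5l at 19.5 TPM (33.9) and Gm34006 at 0.877 TPM (1.61). It was highest for Spint2 at 24.6 TPM (nearest 12.6) and Neurod1 at 9.21 TPM (1.95). Without this library the adjusted p of each of these genes other than Mobp stayed below 0.05 in edgeR.

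The other values were single. Among low mice, PFF mouse 12 at 21% O2 had the lowest Mobp at 1122 TPM (nearest 1255), PFF mouse 4 at 21% O2 the lowest Cd82 at 60.1 TPM (67.6) and PFF mouse 5 at 21% O2 the highest Ak5 at 27.5 TPM (20.6). Monomer mouse 12 at 11% O2, also low, was highest for Cd82 at 98.8 TPM (nearest 83.1) and Neurod1 at 3.78 TPM (1.55), and low monomer mouse 10 at 21% O2 had the most genes with a count at 27847 (27132). Among high mice, monomer mouse 3 at 21% O2 had the highest Efhd1 at 99.1 TPM (93.9) and monomer mouse 9 at 11% O2 the highest Unc5d at 4.69 TPM (3.19). High PFF mouse 8 at 11% O2 was lowest for Cpm at 19.7 TPM (21.9) and Gm34006 at 0.582 TPM (1.16), and high monomer mouse 7 at 11% O2 had the fewest counts of its 6 at 15736007 (16444757).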

How the results depend on the processing

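The split rests on small differences in a graded level, and the number of calls moved with the setting. Of 85 genes followed for high over low Mobp mice, signs turned in 2 refits. The refits use mostly the same mice, so kept signs are no separate support. The fibroblast and meninges list changed direction between all 48 mice and the 42 mice kept by the authors. Settings test different numbers of genes, so calls are given as a percentage of the genes tested, higher before lower. Against 0.683% and 0.419% for high over low Mobp mice (124 and 76 genes), they were 3.14% and 0.639% by the adjusted p alone, 1.56% and 0.88% in the 42 mice kept by the authors (counts before correction), 2.64% and 3.54% without the batch term, 0.259% and 0.0606% with limma on log2(TPM + 1), 0.27% and 0.0771% with a pseudocount of 0.1, and 0.212% and 0.0555% with a mean TPM of at least 1. They were 0.105% and 0% with mice ranked within group and batch, 0.0658% and 0% when the library of fewest counts was also left out (chosen after seeing the data), 0.38% and 0.022% with mice ranked by Mbp, 0.22% and 0.126% without the highest and lowest mouse of each group, and 6% and 5.76% per doubling of Mobp as a continuous term. The fold change threshold of 0.25 then applies to a doubling, while the class means of Mobp differed 1.12 to 1.33 times within groups. The calls of the continuous term are thus not made at a like threshold. DESeq2 called 0.826% lower, and 1.05% were higher without the 2 mice nearest the split in each group. Each of the 4 groups alone gave 0% and 0%, as did batches 1 and 3, and batch 2 gave 0% and 0.0164%. The cause of these moves was not tested, except that single groups and batches hold fewer mice.

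With the replicate block (mice with the same number across groups), 0.0496% were higher and 0.011% lower (9 and 2 genes). The mean correlation of deviations was −0.02 for mice with the same number and −0.03 for others, and 19 of 72 same-number pairs were above 0.1, so the numbers are not treated as pairs. The block moved no other count of calls over all genes by more than 1.5 times.

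Between conditions, 11% over 21% O2 in PFF mice gave 0.523% higher and 0.176% lower. DESeq2 gave 1.22% and 0.292% there, limma 0.325% higher with the pseudocount of 0.1 and 0.293% with a mean TPM of at least 1, and 0.0508%, 0.142% and 0.135% were lower without the filter, on corrected counts and with protein-coding genes. In monomer mice (3.64% and 1.66%) it was 1.02% higher without the filter, 7.6% and 3.7% without the batch term, 2.11% and 0.989% with limma and a mean TPM of at least 1, and 3.01% lower by the adjusted p alone. PFF over monomer mice at 11% O2 (0% higher) gave 0.0275% with DESeq2 and 0.00242% without the filter. At 21% O2 (2.1% and 1.16%) it was 1.51% higher with protein-coding genes, 1.38% with limma, 1.15% with limma and a mean TPM of at least 1, and 2.63% lower by the adjusted p alone. Signs turned for Elovl1 in monomer mice at 21% O2 alone (−0.0031), for Tunar in PFF mice at 11% O2 alone (0.034), and for Mobp between PFF and monomer mice at 21% O2 (−0.0017 as reported), which was 0.010 on corrected counts, 0.052 without the batch term, 0.0071 with protein-coding genes, 0.017 with the class as a term and 0.0030 with log2 total counts (the last chosen after seeing the data).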

Other observations

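Several lists gave further values. Of 11 striatal genes 8 were lower in high Mobp mice (median −0.30 on the log2 scale), and their summed level reached 787 TPM in 1 low mouse against at most 391 TPM in high mice. The striatal genes are also counted among the 55 region genes above. Of 15 immediate early genes, which neurons switch on with activity, 11 were lower with a median of −0.08. The 13 mitochondrially encoded genes had a median of 0.01, with 9 of 13 higher. The 14 genes of iron handling were split 7 and 7, but their summed level was 3469 ± 374 TPM in high and 3043 ± 213.6 TPM in low mice (SD, n = 24 each), and Trf, which is also an oligodendrocyte gene, made up 1298 and 1058 TPM of these sums. Of 10 pericyte and smooth muscle genes 5 were higher and 5 lower. The 5 red blood cell genes tested had a median of 0.00 with all mice and of 0.30 without the library of fewest counts, in which the summed level of these genes was 29690 TPM against at most 5599 TPM in high mice.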
